A study of Mus musculus with 13 samples.

Results

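Bone marrow taken 9 h after a single blood withdrawal was compared with marrow of control mice, gene by gene. The comparison holds 3 arrays at 9 h and 3 control arrays, chosen by the time given in the sample labels, out of 13 arrays of the series. All samples were femoral marrow of male C57BL/6 mice aged 6 weeks on standard chow, and total RNA was measured on the 1-colour Affymetrix Mouse Gene 1.0 ST array. Phlebotomy took 500 µL of blood by retro-orbital puncture, and the femurs of the 9 h mice were collected 9 h later. Control femurs were taken at baseline, without a phlebotomy, and the labels mention no sham puncture and no hour of the day for any sample. The labels do not say whether replicates are separate animals, so the p-values below measure only how far these samples varied, perhaps technically. Arrays at 12 h (n = 2) and 15 h (n = 2) after the same withdrawal served as the nearest later times.

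Loss of blood lowers oxygen delivery, the kidney releases erythropoietin, and erythropoietin binds its receptor on erythroid precursors in the marrow. The receptor activates the kinase JAK2 and the transcription factor STAT5, which switches on survival genes and also the inhibitors that later dampen the signal. Erythroid precursors also secrete erythroferrone, a hormone that lowers hepcidin in the liver by binding bone morphogenetic proteins, and so releases iron for new red cells. Marrow is a mixture of erythroid, myeloid and lymphoid cells with stroma, bone cells and vessels. In such bulk RNA fewer cells of a type and less RNA per cell cannot be told apart.

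The title numbers of the arrays form 2 runs. The larger run of 10 arrays holds control replicates 1 and 2 and 9 h replicate 3. The smaller run of 3 arrays holds 9 h replicates 1 and 2 with control replicate 3. Array medians of the log2 level were 7.30 to 7.40 on the arrays of the larger run and 8.13 to 8.14 on those of the smaller, so levels are compared only within a run. In the smaller run 75.6% of genes repeated a value on 2 or 3 of its arrays and 47.7% on all 3, which makes their difference exactly 0 there. On the 3 matching arrays of the larger run the first share was 0.0752%. Genes with 3 equal values in the smaller run cannot lie without overlap in both runs. They still count in the shares of all genes given for that criterion below. The defining marrow transcripts Alas2, Slc4a1, Mpo, Elane, S100a8, Cd79a and Pf4 lay between the 98.0 and 99.9 percentile of all genes on each of the 6 arrays. The number of arrays limits the precision, and the median standard error of a log2 difference at 9 h was 0.0879.

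Listed targets of erythropoietin and STAT5, clock genes and gut transcripts made up most of what passed the test. The lists were chosen with earlier results of these data known, so this describes the genes and does not test the lists. At a Benjamini-Hochberg adjusted p under 0.05 from limma, 10 genes rose (0.0502% of 19938 genes) and 9 fell (0.0451%), 0.0953% in all. Those that rose were Cish, Erfe, Fgf23, Noct, Plek2, Sema3a, Map2k3os, Pim1, Eef1e1 and Shmt2. Those that fell were Reg3g, Reg3b, Fabp2, Clca4b, Nr1d1, Fmo2, Zg16, Dbp and Dnase1l3. At an unadjusted p under 0.05 there were 726 genes higher (3.64%) and 495 lower (2.48%). The count depended on single arrays: it was 5 without 9 h replicate 3, 8 without control replicate 2, 10 without 9 h replicate 1 and 75 without control replicate 3. Cish, Erfe, Reg3g, Reg3b and Fabp2 kept their call when each of the 13 arrays was left out in turn, and the other 14 lost it for at least 1 array.

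**Figure D1:**
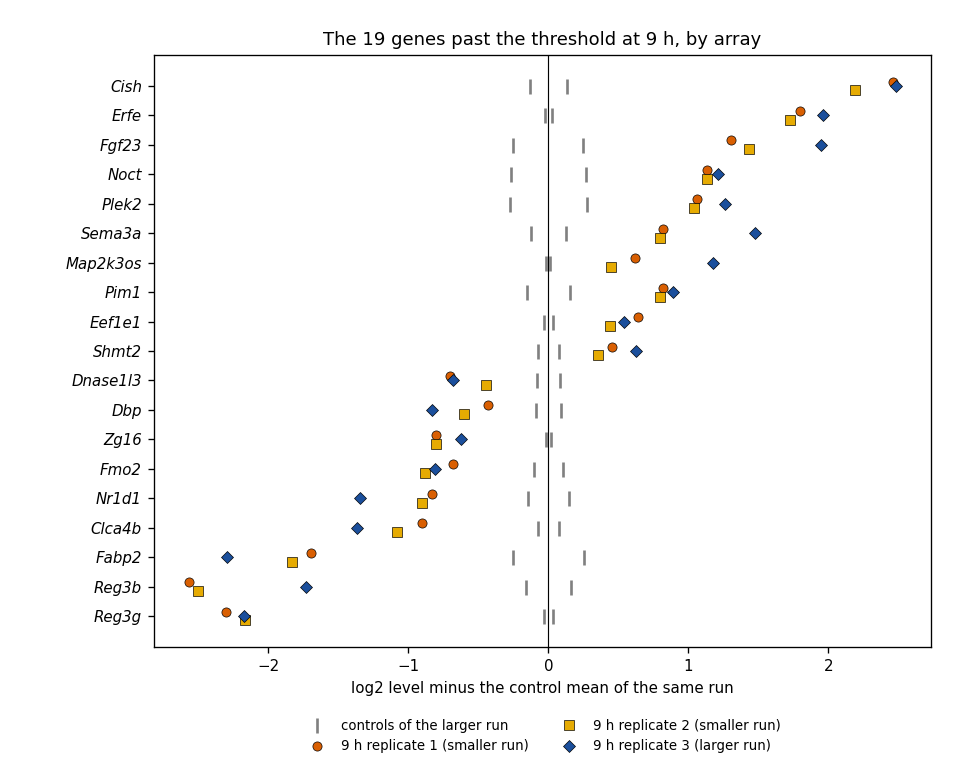
Log2 level of each 9 h array minus the control mean of the same run (x axis) for the 19 genes past the threshold (y axis). Grey bars are the 2 controls of the larger run, and the single control of the smaller run lies at 0 by construction. The 3 arrays at 9 h lie beyond the controls of their own run for every gene shown.

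Cish, a feedback inhibitor of cytokine receptors that STAT5 induces, showed the largest rise. Its log2 level was 7.56 and 7.83 in the controls of the larger run and 10.18 at 9 h, and 8.11 in the control of the smaller run against 10.57 and 10.30 at 9 h. The groups did not overlap in either run. The difference was 2.40 ± 0.16 (log2, standard error; 5.29-fold; limma adjusted p = 9.98e-05), with 2.48 in the larger run and 2.46 and 2.19 for the arrays of the smaller.

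Erfe, which encodes erythroferrone, was the gene with the smallest p. Its log2 level was 7.31 and 7.26 in the larger run's controls and 9.25 at 9 h, and 7.95 in the smaller run's control against 9.75 and 9.67. The 9 h arrays were higher in both runs with no overlap. The difference was 1.86 ± 0.08 (3.64-fold; limma adjusted p = 1.35e-06), and the 3 arrays gave 1.96, 1.80 and 1.72.

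Pim1, a kinase that supports survival downstream of cytokine receptors, went from 9.92 and 10.23 to 10.96 in the larger run and from 11.37 to 12.19 and 12.17 in the smaller (log2 levels). All 9 h arrays again lay above the controls of their run. It rose by 0.85 ± 0.10 (1.80-fold; limma adjusted p = 0.0127), and of the fits with 1 array left out its call was lost in that without 9 h replicate 3. Plek2, pleckstrin-2, a membrane-binding protein of late erythroid precursors, stood at 7.73 and 8.27 against 9.26 in the larger run and at 8.87 against 9.94 and 9.91 in the smaller. The groups did not overlap, and the rise was 1.16 ± 0.12 (2.23-fold; limma adjusted p = 0.00629), a call that was lost in the same fit. Both genes also missed the threshold with the 6 arrays alone and in either run alone.

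The list of targets of erythropoietin and STAT5 had 21 measured genes, of which 4 rose (Cish, Erfe, Plek2 and Pim1) and 0 fell. Over all genes 0.0502% rose and 0.0451% fell. The list's median difference was 0.14, against 0.012 over all genes. In both runs without overlap 9 of the 21 were higher, against 6.29% of all genes, and 1 was lower, against 5.22%. Of the 21, 4 had 3 equal values in the smaller run and cannot lie without overlap, against 47.7% of all genes. The next members by p missed the threshold. Podxl, a sialomucin of progenitor and vessel cells, differed by 0.69 ± 0.11 (adjusted p = 0.0599). Socs3, another feedback inhibitor, differed by 0.42 ± 0.08 (adjusted p = 0.125), and Osm, the cytokine oncostatin M, by 0.74 ± 0.14 (adjusted p = 0.15). Tfrc, the transferrin receptor through which erythroid cells import iron, differed by 0.42 ± 0.11 (adjusted p = 0.372). For each of these 4 genes the 9 h arrays exceeded the controls in both runs: Tfrc, for example, stood at 11.53 and 12.00 against 12.20, and at 12.35 against 12.74 and 12.77.

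Other targets that textbooks list beside them gave smaller or mixed values. Socs2, an inhibitor of the same family, differed by -0.04 ± 0.17, with -0.34 in the larger run and 0.21 and 0.31 in the smaller. Bcl2l1, the survival factor BCL-XL, differed by 0.04 ± 0.08, and Pim2, a sister kinase of Pim1, by 0.15 ± 0.10, with exactly 0 on both 9 h arrays of the smaller run. The receptor gene Epor differed by -0.07 ± 0.15 and Kit, the stem cell factor receptor, by -0.18 ± 0.08. Of 19 genes of the erythropoietin and KIT receptor pathway 0 passed in either direction, and their median was 0.02.

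STAT5 binds palindromes of the form TTCNNNGAA, so the promoters of the genes above were read in RefSeq (GRCm38.p6). Of the 10 genes that rose, 3 (Fgf23, Shmt2 and Eef1e1) had a match on either strand in the 250 bases before the start, against 8.13% of 27025 genes whose promoters were read; of the 7 falling genes with a promoter in the table, 2 had one. Cish had none in those 250 bases but a pair of matches from the first base of the transcript on. The stretches below show the Cish pair, the match in Socs3, and the matches in Fgf23 and Shmt2, with the motif in capitals. A match is a description of the letters and not a measured binding site.
Cish (chr9:107296655-107296684, plus strand, 5′ to 3′): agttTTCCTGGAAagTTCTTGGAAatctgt
Socs3 (chr11:117969477-117969556, minus strand): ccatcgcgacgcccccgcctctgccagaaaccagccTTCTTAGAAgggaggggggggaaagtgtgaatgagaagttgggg
Fgf23 (chr6:127072762-127072841, plus strand): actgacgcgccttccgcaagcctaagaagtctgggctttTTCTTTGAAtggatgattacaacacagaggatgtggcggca
Shmt2 (chr10:127522460-127522539, minus strand): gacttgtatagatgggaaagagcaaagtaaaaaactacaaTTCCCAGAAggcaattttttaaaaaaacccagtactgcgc
The Cish matches start at bases 1 and 12 of the transcript, and the others 154, 101 and 55 bases before the start of Socs3, Fgf23 and Shmt2. On the list of erythropoietin and STAT5 targets 1 of 16 genes with a promoter had a match in the 250 bases.

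Among the regulators of hepcidin Erfe was the only one of 29 measured genes past the threshold. Twsg1, twisted gastrulation, which binds bone morphogenetic proteins outside the cell, stood at 9.03 and 8.75 in the larger run's controls against 8.71 at 9 h, and at 9.78 on all 3 arrays of the smaller run. It differed by -0.09 ± 0.09 (limma adjusted p = 0.889). Hamp, hepcidin itself, was dim on each of these arrays, between 4.75 and 5.16, and differed by -0.01 ± 0.12. The ligand genes Bmp6 and Bmp4 differed by -0.39 ± 0.10 (adjusted p = 0.374) and -0.84 ± 0.26 (adjusted p = 0.606). For Bmp4 the larger run gave -1.57 and the arrays of the smaller run -0.01 and -0.22. The list's median was -0.06.

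No listed gene of heme synthesis, the red cell membrane or erythroid transcription passed the threshold. The median difference was -0.01 over 17 genes of heme synthesis, -0.02 over 20 genes of the red cell membrane and 0.00 over 19 erythroid transcription factors, and 0 genes of the 3 lists passed. Alas2, the erythroid enzyme that starts heme synthesis, differed by -0.02 in the larger run and by -0.04 and -0.07 on the arrays of the smaller, or -0.04 ± 0.07 in the fit. The erythroid factors Gata1 and Klf1 differed by 0.08 ± 0.12 and 0.06 ± 0.14. Of 24 genes of iron uptake, storage and export 0 passed, with Tfrc the highest and Cybrd1, a ferric reductase, the lowest at -0.45 ± 0.20.

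Fgf23 encodes the hormone with which bone controls phosphate excretion. Its log2 level was 7.48 and 6.98 in the larger run's controls and 9.18 at 9 h, and 8.35 in the smaller run's control against 9.65 and 9.78. The 9 h arrays were higher without overlap in both runs, and the rise was 1.66 ± 0.23 (3.15-fold; limma adjusted p = 0.0316). The call was lost without either 15 h array, without control replicate 1 or 2 and without any one of the 9 h arrays, while the difference stayed between 1.37 and 1.95.

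Most other genes of bone cells had values below control. On the list of 16 osteocyte and phosphate genes Fgf23 was the only one past the threshold, the median was -0.16, and 12 of the 16 were lower, against 8978 of all 19938 genes. Phex, an endopeptidase of osteocytes that restrains Fgf23, stood at 10.81 and 9.85 in the larger run's controls and 8.47 at 9 h. In the smaller run it stood at 10.68 against 10.44 and 10.66. Its difference was -1.0 ± 0.34 (adjusted p = 0.732). Fgfr1, a receptor for FGF23, differed by -0.69 ± 0.25, Alpl, the phosphatase of mineralising cells, by -0.81 ± 0.31, and Pdpn, a membrane protein of young osteocytes, by -0.53 ± 0.19, all with adjusted p of 0.777 or higher.

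These lower values came with lower bone and stromal markers on 1 array. The mean log2 level of 24 osteoblast, stromal and endothelial markers was taken for each array. It was 10.38 and 9.86 in the larger run's controls and 9.47 on 9 h replicate 3. On that array 18 of the 24 lay below both controls and 3 above them. The share of all genes in such a position on single arrays was not counted, here or for the gut, muscle and liver markers below. In the smaller run the mean was 10.85 in the control and 10.78 and 10.88 at 9 h. The median difference was -0.48 in the larger run and -0.14 and 0.00 on the arrays of the smaller. Col1a1, the collagen of bone matrix, stood at 13.64 and 13.04 against 11.99, and at 13.87 against 13.68 and 13.85. Sparc, another matrix protein of bone, stood at 14.11 and 13.73 against 12.78, and at 14.23 against 14.17 and 14.25. The part of this array's bone content in the values of Phex, Alpl and Bmp4 was not tested. Fgf23 rose on all 3 arrays, including the array on which these markers were low. Mmp13, a collagenase of bone cells and a member of that marker list, was higher without overlap in both runs (10.67 and 9.78 against 11.03, and 11.07 against 12.21 and 12.28), by 0.99 ± 0.23 (adjusted p = 0.286).

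Genes of the daily clock divided by direction. Nr1d1 (REV-ERBα, a repressor in the clock's second loop) stood at 9.14 and 8.85 in the larger run's controls and 7.65 at 9 h, and at 9.77 in the smaller run's control against 8.93 and 8.87. The groups did not overlap. It fell by 1.11 ± 0.14 on the log2 scale (limma adjusted p = 0.015), a call that was lost without control replicate 2 or 9 h replicate 3. Dbp, a transcription factor that the clock drives directly, stood at 8.35 and 8.17 against 7.43, and at 8.95 against 8.51 and 8.35. It fell by 0.67 ± 0.10 (adjusted p = 0.0474) and with 1 array left out kept this call in 2 of the 13 fits, without control replicate 3 and without the 4 h array.

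Noct, nocturnin, a rhythmic enzyme first described as a deadenylase, went the other way. It stood at 8.74 and 9.28 against 10.22 in the larger run, and at 9.30 against 10.44 on both 9 h arrays of the smaller. It rose by 1.17 ± 0.15 (2.25-fold; limma adjusted p = 0.0171). Since its 2 values at 9 h in the smaller run were equal, that run gave it no spread of its own, and the call was lost without control replicate 3, 9 h replicate 1 or 9 h replicate 3.

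Of 20 measured clock genes 1 rose (0.0502% of all genes) and 2 fell (0.0451%). In both runs without overlap 2 were higher, against 6.29% of all genes, and 8 lower, against 5.22%. Of the 20, 1 had 3 equal values in the smaller run and cannot lie without overlap, against 47.7% of all genes. Nr1d2, the sister repressor of Nr1d1, differed by -0.82 ± 0.15 (adjusted p = 0.124), with no overlap in either run. Per3 differed by -0.26 ± 0.10, Per2 by 0.04 ± 0.07, Per1 by 0.40 ± 0.17 and Arntl, the activator that Nr1d1 represses, by 0.25 ± 0.11, all with adjusted p of 0.795 or higher. Per1 did not keep 1 direction, with 0.72 in the larger run and -0.13 and 0.27 on the arrays of the smaller. The E-box letters CACGTG, through which the clock's activators bind, stood in the 250 bases before the start of 5 of 17 clock genes (29.4%). The share was 6.86% of all genes whose promoters were read and 8.11% of the tested genes among them. These were Bhlhe41, Ciart, Cry1, Per1 and Tef, and no match was found for Nr1d1, Dbp or Noct. The clock list's share was not particular to it, since a list of genes of MYC and G1 control also had 5 of 17. Whether the groups were collected at different hours of the day cannot be read from the labels, and its part in these values was not tested.

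Machinery for making ribosomes and proteins was higher gene after gene by small amounts. All 39 measured genes of the nucleolar list were higher at 9 h by the fitted value, from 0.08 (Polr1c) to 0.46 (Nop16), against 10960 of all 19938 genes. No overlap in either run was seen for 36 of them, against 6.29% of all genes higher in that way. Of the 39, 0 had 3 equal values in the smaller run, against 47.7% of all genes, which cannot lie without overlap. Not one of the 39 passed the threshold in limma, and 30 had an unadjusted p under 0.05 (3.64% of all genes were higher at that p). The list's median was 0.30, with 0.44 in the larger run and 0.17 and 0.14 on the arrays of the smaller; over all genes these were 0.012, 0.027, 0 and 0.

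Nop16, a factor of the large ribosomal subunit's assembly, stood at 9.65 and 9.40 against 10.04 in the larger run and at 10.41 against 10.85 and 10.81 in the smaller (0.46 ± 0.08; adjusted p = 0.124). Mrto4, another assembly factor of that subunit, stood at 7.68 and 7.58 against 8.21, and at 8.45 against 8.83 and 8.75 (0.46 ± 0.09; adjusted p = 0.14). Mybbp1a, a nucleolar MYB-binding protein, differed by 0.41 ± 0.08, Gnl3, nucleostemin, by 0.37 ± 0.08, and Nop58, a core protein of small nucleolar RNPs, by 0.35 ± 0.07. Each of these 5 was higher on every 9 h array than on any control of its run. Myc, the factor known for driving this machinery, stood at 10.07 and 10.02 against 10.59, and at 10.89 against 11.04 and 10.95. Its difference was 0.32 ± 0.13 (adjusted p = 0.806).

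Related lists gave smaller medians in the same direction. The 33 aminoacyl-tRNA synthetase genes, which charge tRNAs, had a median of 0.19. Of these 30 were higher by the fitted value, against 10960 of all 19938 genes, and 19 were higher in both runs without overlap, against 6.29%. Of the 33, 9 had 3 equal values in the smaller run, against 47.7% of all genes. Tars, Nars and Hars, the enzymes for threonine, asparagine and histidine, differed by 0.42 ± 0.09, 0.35 ± 0.07 and 0.32 ± 0.06. All 8 subunits of the chaperonin CCT were higher, with a median of 0.19 and 7 of 8 without overlap. The 63 mitochondrial ribosomal proteins had a median of 0.12 with 59 higher, while 26 cytosolic ribosomal proteins had 0.04. Of 26 heat shock chaperones 22 were higher, with a median of 0.18. Hsph1, a large chaperone of the HSP110 family, led them at 0.88 ± 0.17 (adjusted p = 0.156), with 1.33 in the larger run and 0.53 and 0.32 on the arrays of the smaller. On these 5 lists 0 genes passed the threshold.

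A pair of genes from this side of metabolism did pass. Eef1e1, a scaffold protein of the complex that holds several tRNA synthetases, stood at 10.30 and 10.36 against 10.87, and at 10.97 against 11.61 and 11.41. It rose by 0.54 ± 0.08 (limma adjusted p = 0.0316). Shmt2, the mitochondrial enzyme that passes 1 carbon unit from serine to folate, stood at 9.20 and 9.35 against 9.90, and at 10.27 against 10.72 and 10.62. It rose by 0.51 ± 0.08 (adjusted p = 0.0474). Both sets of values were without overlap, but the calls were not stable: Eef1e1 kept its own in 4 and Shmt2 in 2 of the 13 fits with 1 array left out. Mthfd2, the next enzyme of the same mitochondrial pathway, just missed the threshold at 0.50 ± 0.08 (adjusted p = 0.0515). Asns, asparagine synthetase, differed by 0.45 ± 0.11 (adjusted p = 0.352) and Psat1, of serine synthesis, by 0.16 ± 0.07. Of 26 genes of the ATF4 amino acid response 1 rose (Shmt2), with a median of 0.03.

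**Figure D2:**
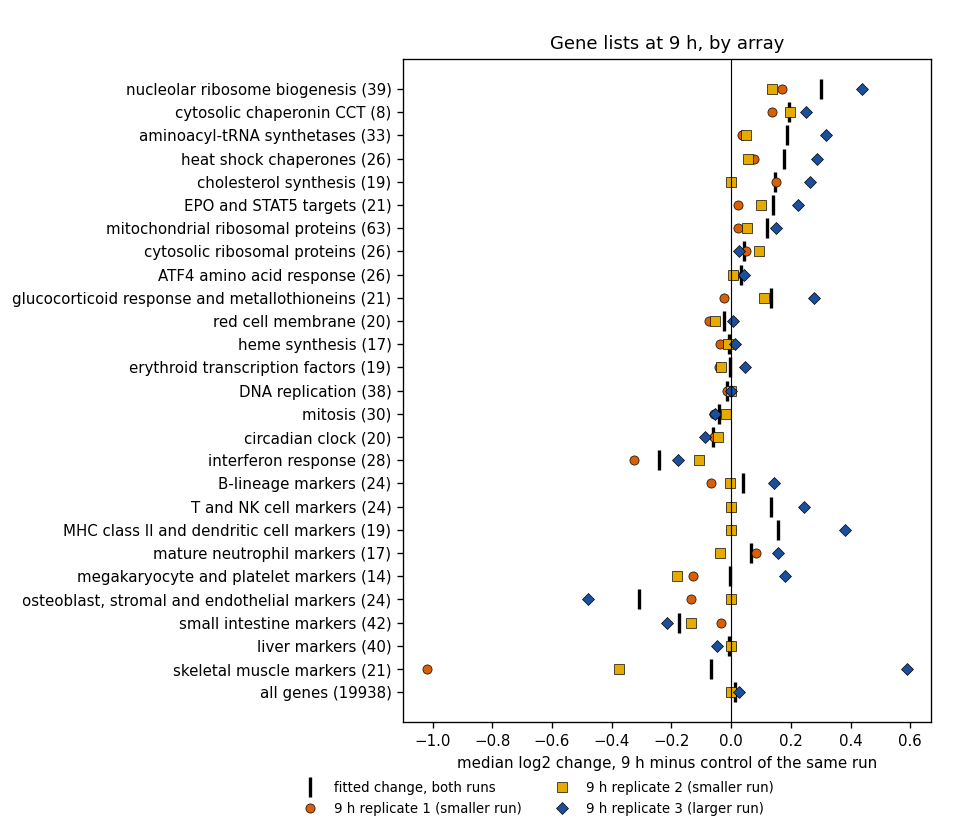
Median log2 difference from control over the measured genes of each list (number in brackets), for each 9 h array against the control mean of its own run and for the fit to both runs. The nucleolar list is to the right of 0 on all 3 arrays (0.44, 0.17 and 0.14) and the interferon list to the left (-0.18, -0.33 and -0.11), while skeletal muscle markers lie at 0.59 in the larger run and at -1.02 and -0.38 in the smaller.

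Genes that interferon induces were lower. Of 28 measured members 27 were lower at 9 h by the fitted value (8978 of all 19938 genes), 12 of them on every array and without overlap in both runs (5.22% of all genes were lower in that way), and none was higher without overlap. Of the 28, 0 had 3 equal values in the smaller run, against 47.7% of all genes, which cannot lie without overlap. In limma 0 passed the threshold and 10 had an unadjusted p under 0.05 (2.48% of all genes were lower at that p). Without control replicate 1 there were 21 members without overlap. With fewer controls the criterion is easier for every gene, and the share of all genes that met it there was not counted. The median was -0.24, with -0.18 in the larger run and -0.33 and -0.11 on the arrays of the smaller. Ifit3, an antiviral RNA-binding protein, stood at 9.40 and 9.95 against 8.64, and at 10.27 against 9.50 and 9.82 (-0.82 ± 0.18; adjusted p = 0.21). Dhx58, a regulator of the RIG-I receptors for viral RNA, stood at 8.84 and 9.12 against 8.60, and at 9.81 against 9.26 and 9.45 (-0.41 ± 0.09; adjusted p = 0.233). Rtp4, Mx2 and Ifih1 differed by -0.44 ± 0.12, -0.50 ± 0.15 and -0.28 ± 0.09.

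Many promoters of these genes hold the element through which interferon acts. A high share is therefore a trait of a list of interferon-induced genes and says nothing about the change at 9 h. The core of the interferon-stimulated response element, GAAA repeated after 2 bases of any kind, was searched after the values had been seen. It stood on either strand in the 250 bases before the start of 12 of 20 genes of the list with a promoter in the table (60.0%), against 3.46% of all genes whose promoters were read. The stretches below, from RefSeq (GRCm38.p6), show Ifit3 with its neighbour Ifit1 and Rsad2, with the motif or its reverse complement in capitals.
Ifit3 (chr19:34583354-34583433, plus strand, 5′ to 3′): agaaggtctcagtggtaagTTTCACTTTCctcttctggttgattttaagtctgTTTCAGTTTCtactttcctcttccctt
Ifit1 (chr19:34640759-34640838, plus strand): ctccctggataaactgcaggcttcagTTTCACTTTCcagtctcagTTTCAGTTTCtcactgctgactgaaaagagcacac
Rsad2 (chr12:26456533-26456612, minus strand): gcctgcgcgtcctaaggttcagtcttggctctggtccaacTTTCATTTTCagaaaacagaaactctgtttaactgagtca
Ifit3 and Ifit1 each hold 2 copies and Rsad2, which encodes viperin, holds 1. Rsad2 differed by -0.29 ± 0.12 and was lower without overlap in both runs.

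The remaining genes past the threshold belong to no list above. Sema3a, a secreted semaphorin, stood at 7.25 and 7.50 against 8.85 in the larger run and at 8.33 against 9.15 and 9.12 in the smaller. It rose by 1.14 ± 0.15 (2.21-fold; limma adjusted p = 0.0171), a call lost without control replicate 2 or 9 h replicate 3. Map2k3os, an opposite-strand transcript at the kinase gene Map2k3, stood at 7.01 and 6.98 against 8.17, and at 7.79 against 8.41 and 8.24. It rose by 0.85 ± 0.12 (adjusted p = 0.0362) and kept its call in 3 of 13 fits with 1 array left out. Whether its probes also read Map2k3 was not tested.

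Fmo2, a flavin-containing monooxygenase, stood at 7.47 and 7.27 against 6.56, and at 7.98 against 7.30 and 7.10. It fell by 0.79 ± 0.12 (limma adjusted p = 0.0415) and kept its call in 3 of 13 such fits. Dnase1l3, a secreted nuclease of macrophages and dendritic cells, stood at 7.88 and 8.04 against 7.28, and at 8.81 against 8.11 and 8.37. It fell by 0.63 ± 0.09 (adjusted p = 0.0261) and kept its call in 5 of 13. All 9 h values of both genes lay below the controls of their run. Of the genes with the largest differences in both runs that missed the threshold, Atp1b2, a sodium pump subunit, differed by 0.84 ± 0.19 and Dapl1 by 1.14 ± 0.30. On the lower side Tac2, a tachykinin precursor, differed by -0.66 ± 0.20 and Adh1, an alcohol dehydrogenase, by -0.61 ± 0.12.

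Of the 9 genes that fell, 5 are gut transcripts, and 4 of these fell the most. Reg3g, an antimicrobial lectin of the intestine, stood at 7.61 and 7.54 in the larger run's controls and 5.40 at 9 h, and at 7.71 in the smaller run's control against 5.41 and 5.54. It fell by 2.21 ± 0.09 on the log2 scale (limma adjusted p = 1.35e-06). Reg3b, its sister lectin, fell by 2.13 ± 0.19 (adjusted p = 0.00157). Fabp2, the fatty acid binding protein of enterocytes, fell by 2.03 ± 0.16 (adjusted p = 4.84e-04). Clca4b, of a family of intestinal chloride channel regulators, fell by 1.18 ± 0.14 (adjusted p = 0.0105), and Zg16, a lectin of goblet cells, by 0.71 ± 0.09 (adjusted p = 0.0211). With 1 array left out Clca4b kept its call in 11 and Zg16 in 7 of the 13 fits. Zg16 stood at 6.86 on both 9 h arrays of the smaller run, which therefore gave it no spread of its own.

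All 5 belong to a list of 42 measured small intestine markers, of which 5 fell (0.0451% of all genes), 0 rose and 20 were lower without overlap in both runs (5.22% of all genes). Of the 42, 13 had 3 equal values in the smaller run and cannot lie without overlap. Without the 30 percent dimmest genes 8 members without overlap were left. That filter also removes members, and neither the members kept nor the share of all kept genes was counted. Apoa1, an apolipoprotein of intestine and liver, just missed the threshold at -0.89 ± 0.14 (adjusted p = 0.0583). The mean log2 level of the list was 6.54 and 6.49 in the larger run's controls and 6.09 at 9 h, and 7.19 in the smaller run's control against 6.90 and 6.86. The single 4 h array of the larger run stood at 9.21, with Reg3g at 12.32, and the arrays at 12, 15 and 48 h between 6.04 and 6.27. The list's mean was thus higher in the controls than on the arrays of their run from 9 h on, and lower than on the 4 h array. Single markers went other ways: on 9 h replicate 3 there were 33 of 42 below both controls and 7 above them, and Apoa1 stood at 9.06 and 8.83 at 48 h against 7.85 and 7.65 in the controls. Cdx2, a defining transcription factor of gut epithelium, was between 26.5 and 33.4 in percentile on the 6 arrays of controls and 9 h. How gut transcripts came to be in marrow RNA was not tested.

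Markers of muscle and liver also moved, on single arrays. The mean log2 level of 21 skeletal muscle markers was 7.71 and 7.64 in the larger run's controls and 8.30 at 9 h, with 21 of 21 above both controls. In the smaller run it was highest in the control, at 8.76 against 7.73 and 8.36, with 21 of 21 highest there. Their median difference was 0.59 in the larger run and -1.02 and -0.38 on the arrays of the smaller, and 0 passed the threshold. For 40 liver markers the mean was 5.92 and 6.02 against 5.89, and 6.72 against 6.81 and 6.68. Alb, serum albumin, stood at 6.87 and 7.23 against 6.96, and at 7.74 against 9.68 and 7.31, so that 9 h replicate 1 stood apart from the other arrays of the comparison. Of the 26 liver markers whose 3 values were not all equal in the smaller run, 17 were highest on that array.

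**Figure D3:**
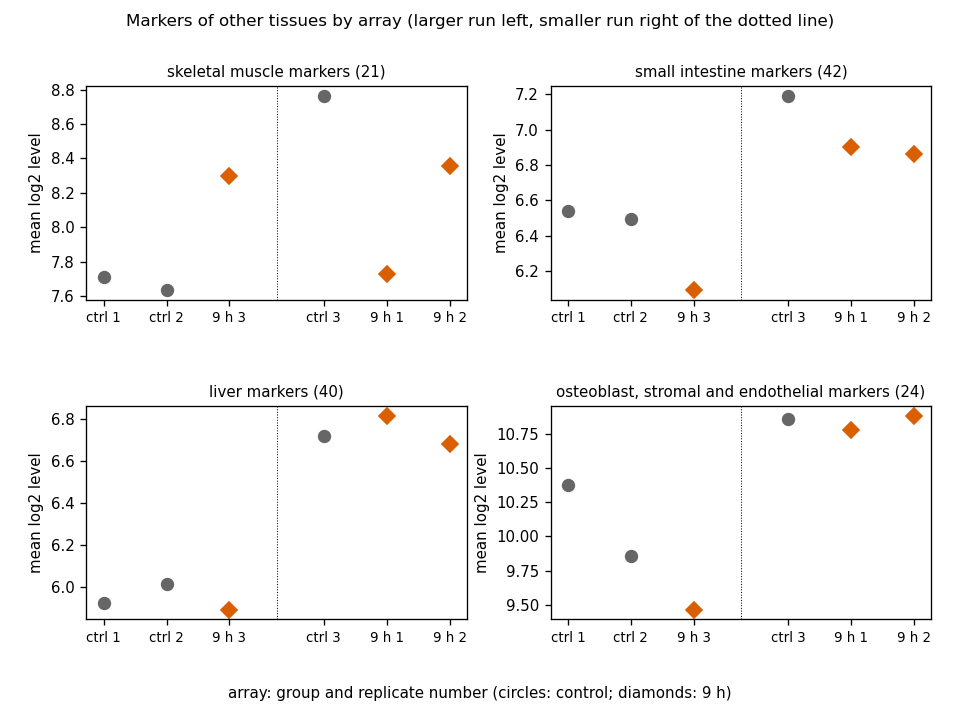
Mean log2 level over the measured markers of 4 other tissues or cell types (number in brackets) on each array, with controls as circles and 9 h arrays as diamonds, the larger run to the left of the dotted line. Muscle markers are higher at 9 h in the larger run and lower in the smaller, gut markers are lower at 9 h in both, and bone and stromal markers are lowest on 9 h replicate 3.

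The 2 runs share no array, so each gives its own measure of the change at 9 h. By the criterion of 9 h arrays beyond every control of the run in the same direction in both runs, 1254 genes were higher (6.29%) and 1041 lower (5.22%), while 1516 genes were without overlap in opposite directions. With a difference of at least log2 0.5 in each run, 16 genes were higher (0.0802%) and 19 lower (0.0953%), against 11 in opposite directions. At a minimum of log2 1 there were 5 higher (0.0251%) and 3 lower (0.015%), against 1 in opposite directions. Of the 11 opposite genes 9 were on the skeletal muscle list, and the other 2 (Klhl41 and Myot, named after their values were seen) are also known from muscle.

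All 19 genes past the threshold lay without overlap in the same direction in both runs. They were chosen by a fit to both runs, which favours genes whose runs moved alike, so these values only describe them. The ratio of the smaller run's difference to that of the larger ran from 0.454 to 1.46 with a median of 0.850, and 15 of the 19 differed more in the larger run. Across all genes the differences of the 2 runs correlated with a Pearson r of 0.239 and a Spearman rho of 0.144, a description over genes that are not independent and that share the control arrays of their run. Over the 4864 genes with 3 different values in the smaller run r was 0.334. The standard deviation of the differences was 0.254 in the larger run and 0.0922 in the smaller, where nearly 48% of them were 0.

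A test of the difference between the runs called 0 genes in limma (0% of 19938), with 1215 at an unadjusted p under 0.05 (6.09%) and a lowest adjusted p of 0.247. The smallest p-values were those of Klk1b11, a kallikrein, Osr1, a transcription factor of mesenchyme, and Olfr798, an olfactory receptor. All 3 genes had 1 value repeated on the 3 arrays of the smaller run: Osr1, for example, stood at 7.75 there, and at 7.44 and 7.36 against 6.47 in the larger run. The count rested on control replicate 2, since without it 52 genes passed, and with weighted arrays 4 did. A p above the threshold does not show that the runs gave the same change.

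**Figure D4:**
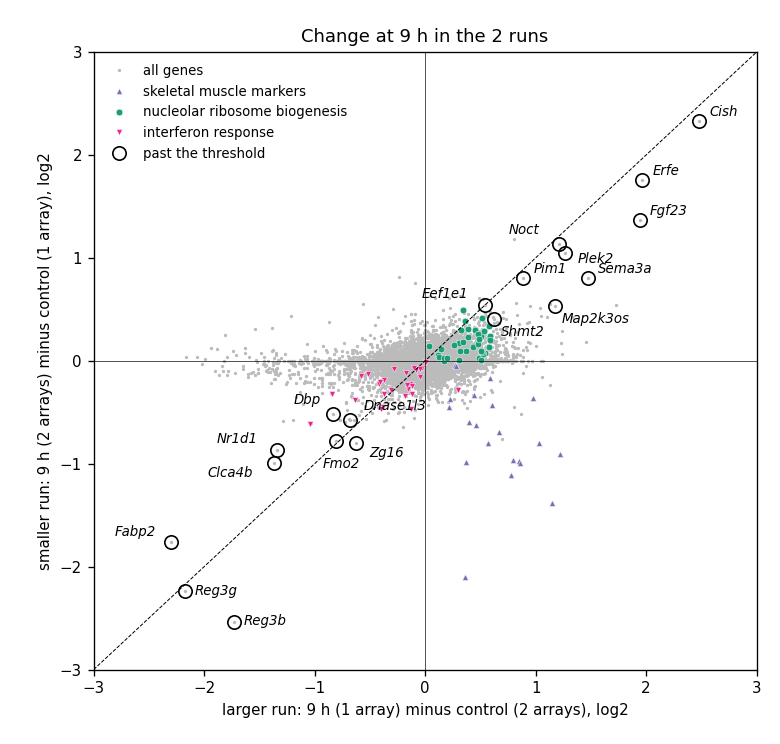
Log2 difference between 9 h and control in the larger run (x axis) and in the smaller run (y axis) for all genes, with 3 lists in colour and the 19 genes past the threshold circled. The dashed line marks equal change. Circled genes lie in the upper right and lower left, and skeletal muscle markers in the lower right.

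The same genes were followed at the next times. The comparisons of 12 and 15 h with control use the same controls, so their values are only set side by side. Cish was higher by 2.40 at 9 h, 1.77 at 12 h and 1.94 at 15 h, and Erfe by 1.86, 1.43 and 1.72. Sema3a gave 1.14, 1.24 and 1.28, and Plek2 1.16, 1.30 and 1.52. Nr1d1 gave -1.11 at 9 h, -0.41 at 12 h and 0.13 at 15 h, whereas Dbp gave -0.67, -0.58 and -0.55. The nucleolar list's median was 0.30, 0.27 and 0.37, and that of the interferon list -0.24, -0.50 and -0.23.

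The 9 h arrays were also tested against the mean of 12 and 15 h. The controls enter that test through the run term, since only the larger run holds arrays at 12 and 15 h. The test called 0 genes in limma (0%), with 2391 at an unadjusted p under 0.05 (12%) and a lowest adjusted p of 0.314. In the larger run alone, where the single 9 h array is assumed to vary like the other groups, it called 45 genes, 42 of them lower at 9 h, and without control replicate 1 it called 490 and without control replicate 3 it called 100. Nr1d1 had the smallest p: it was lower at 9 h by a log2 difference of -0.97 (adjusted p = 0.314). The next were Praf2, a membrane protein of vesicle traffic, at -0.58, and Cpxm2, a carboxypeptidase-like protein, at -0.66. Cish and Erfe were higher at 9 h than at these times by 0.55 and 0.29, with adjusted p = 0.314 for both. The median of the osteoblast, stromal and endothelial list in this comparison was -0.53, against 0.02 over all genes.

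**Figure D5:**
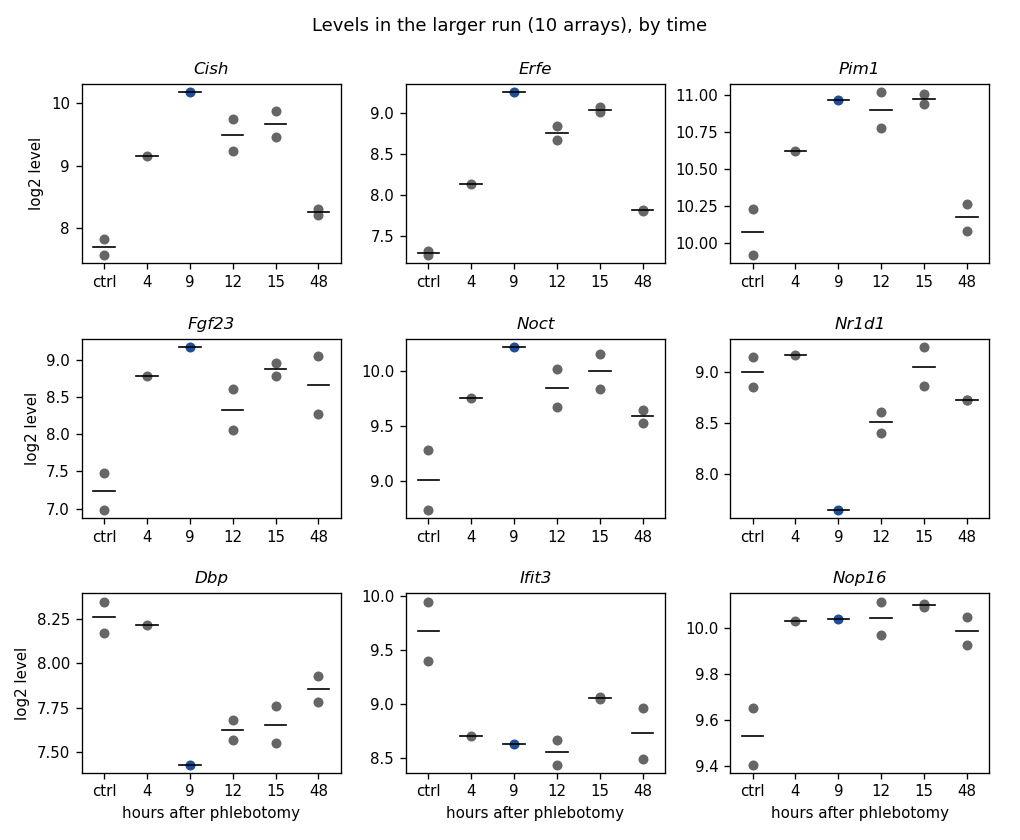
Log2 level of 9 genes on the 10 arrays of the larger run, by hours after phlebotomy (x axis; ctrl, control), each point 1 array and each bar the group mean, with the single 9 h array in blue. Cish, Erfe, Fgf23 and Noct are highest at 9 h in this run, Nr1d1 and Dbp are lowest there, and Nop16 lies above both controls on every later array.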

How the data were processed

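Total RNA of 13 mouse marrow samples was measured on 1 array each. The deposited table holds log2 levels. Per the submitters' processing notes the authors used RMA; its version, and which arrays were normalized together, are not given in the sources used here. Of 35557 probe sets 21789 had 1 gene symbol by the platform annotation, 1621 had several and 12147 were not listed with a gene here. The Entrez identifier gave 21698 of them a current symbol. For the 999 genes with more than 1 probe set, the one with the highest mean stood for the gene, which left 19938 genes.

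From these log2 values limma 3.58.1 in R 4.3.3 fitted 1 model to all 13 arrays, with a mean for each of 6 groups and the run of title numbers as a fixed effect (6 residual and 4.62 prior degrees of freedom), and eBayes moderated it. The fit was also run on simulated data with independent normal noise. Those data held no repeated values, so they cannot show how the fit behaves with the repeats of the smaller run. The threshold was an adjusted p (Benjamini-Hochberg) under 0.05 over all 19938 genes. A second model gave each group its own mean in each run and tested the difference between runs. Fold changes are log2 differences ± standard error. The changes of single 9 h arrays are from the control mean of their run.

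The genes named are all those past the threshold, the 12 in each direction with the largest difference in the run where it was smaller (of genes at log2 0.5 or more in both runs without overlap), up to 5 members of a list with the smallest p, 21 genes set by name and the 3 smallest p-values of the tests that called none; predicted genes were left out. These members and the gene lists were chosen with earlier results of these data known, so lists are described by counts and medians and were not tested. Replicate numbers follow sample order and pair nothing. Promoters, 250 bases before to 50 after a start, are RefSeq's (GRCm38.p6), and motifs were searched on both strands in the 250 bases. The alternatives changed the run term, the arrays used, the probe set rule, the scaling and the moderation. Python 3.11.15 and matplotlib 3.10.9 made the figures.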

Additional observations from a re-analysis of the deposited data

Results flagged for a closer look

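The change of a marker list differed in sign between the runs for 2 lists whose medians also reached a minimum size on every 9 h array. Lists with a smaller median on any array were not flagged, though some also differed in sign. B-lineage markers, for example, had 0.145 in the larger run and -0.0691 and -0.005 on the arrays of the smaller. The median change of 21 skeletal muscle markers was 0.59 in the larger run, where all 21 were above both controls on the 9 h array, and -1.02 and -0.38 on the 9 h arrays of the smaller run. The median change of 14 megakaryocyte and platelet markers was 0.18 in the larger run and -0.13 and -0.18 on the arrays of the smaller. These differences between the runs were not tested as lists. By gene, 0 of both lists passed limma's test of the difference between the runs, while 1 of 21 and 7 of 14 had an unadjusted p under 0.05, against 6.09% of all genes.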

How the results depend on the processing

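The count of 19 genes at 9 h was 3 from the 6 arrays alone, 6 without the run term, 32 with the run as a random block, 6 over all probe sets, 9 with weighted arrays and 2073 in the smaller run alone, where 2 equal values at 9 h leave no spread; leaving out 1 array gave 5 to 75. Of the 19 genes 8 also passed in the larger run alone, where the single 9 h array is assumed to vary like the other groups, and 2 in the smaller run alone, which has 1 control. The count of genes that differed between the runs (0) was 4 with weighted arrays and 0 to 52 with 1 array left out. The count against 12 and 15 h (0) was 45 in the larger run alone and 0 to 490 with 1 array left out. The 35 genes beyond log2 0.5 in both runs became 139 probe sets without the gene rule, 134 genes at 0.3, 8 at 1, and 29 to 41 with 1 array left out. Beyond the smaller number of arrays or genes in some of these fits, the cause was not tested. No paired analysis was possible because the replicate numbers follow sample order and pair nothing. Direction turned only for genes that did not pass: in the larger run alone Epor (0.0179); in the smaller run alone Gata1 (-0.049), Socs2 (0.26) and Bcl2l1 (-0.050); without the run term Kdr (0.19), Epor (0.25), Socs2 (0.29), Kit (0.086), Twsg1 (0.24), Hamp (0.040), Alas2 (0.11) and Cpxm2 (0.13); and with weighted arrays Socs2 (0.051). With 1 array left out Epor ran from -0.22 to 0.046, Gata1 from -0.049 to 0.22, Klf1 from -0.060 to 0.16, Socs2 from -0.34 to 0.26, Bcl2l1 from -0.050 to 0.13 and Hamp from -0.10 to 0.077. The 19 genes kept their direction under every alternative run. Of 42 list medians 41 moved by more than the spread of the 9 h arrays without the run term, which raised the median of all genes from 0.012 to 0.27, and 20 changed sign: the nucleolar median was then 0.59, interferon -0.031, osteocyte 0.096, bone and stromal 0.012 and small intestine 0.13. Under the other alternatives 105 of 1008 list medians moved. There the nucleolar median ran from 0.14 to 0.44, interferon from -0.30 to -0.15, small intestine from -0.39 to -0.076, osteocyte from -0.36 to -0.0092 and bone and stromal from -0.48 to -0.085. Of 378 recomputed list counts without overlap 74 moved by over 1.5 times. The number of arrays limits what the single comparisons can show.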

Other observations

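By list median, lymphoid and antigen-presenting genes were higher on the 9 h array of the larger run and near 0 in the smaller. The 19 genes of MHC class II and dendritic cells had a median difference of 0.38 in the larger run and 0 on both arrays of the smaller, with H2-Ob, a class II chain of B cells, the highest at 0.48 ± 0.15 (limma adjusted p = 0.657). The 24 T and NK cell markers had 0.24 against 0 and 0, led by Cd8b1 at 0.56 ± 0.19. The 24 B-lineage markers went both ways, with 15 higher and 9 lower by the fitted value. Their median was 0.145 in the larger run and -0.0691 and -0.005 on the arrays of the smaller. Fcer2a, the low-affinity IgE receptor of mature B cells, differed most at 0.82 ± 0.31, with 1.46 in the larger run and 0.31 and 0.04 on the arrays of the smaller. Igll1 was the lowest at -0.24. On these 3 lists 0 genes passed the threshold.

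Cholesterol synthesis and metallothionein genes were higher by amounts that did not pass. Of 19 cholesterol genes 17 were higher, against 10960 of all 19938 genes, with a median of 0.15, and Idi1, which isomerises the isoprene unit, differed by 0.43 ± 0.10 (adjusted p = 0.293). The metallothioneins Mt1 and Mt2, which bind zinc and copper, differed by 0.37 ± 0.09 and 0.64 ± 0.27. Genes of cell division gave medians of -0.01 (38 genes of DNA replication) and -0.04 (30 genes of mitosis), with 0 past the threshold.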
